A study of Homo sapiens with 12 samples.

Results

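The long noncoding RNAs most often studied in liver cancer were read from arrays of 2 hepatocellular carcinoma (HCC) cell lines. The members are H19, MALAT1, NEAT1, HULC, MEG3, HOTAIR, PVT1, GAS5 and UCA1, 9 of the 20503 named genes on the array. They were chosen by name, and their probes are those whose RefSeq transcript maps to one of these symbols, which gave 37 of 50599 probes: 10 for PVT1, 8 for MALAT1, 7 for HOTAIR, 4 for NEAT1, 3 for MEG3, 2 for H19 and a single probe for each of HULC, GAS5 and UCA1.

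The study asked what knockdown of GALNT1, an enzyme that starts mucin-type O-glycosylation of proteins, does to HCC cells. HA22T and PLC5 cells in DMEM with 10% FBS received a pool of siRNAs against GALNT1 (siGALNT1) or a non-targeting siRNA (siControl), each at 10 nM with Lipofectamine RNAiMAX, and RNA was taken 48 h later. There were 3 arrays for each of the 4 groups of line and siRNA, 12 in all. Each line stands for itself alone, no untransfected cells were measured here, and p-values measure the spread between arrays that the labels distinguish only by a replicate number. A level is the log2 of the processed signal of a probe relative to the 75th percentile of its array, so 0 is the brightness below which 75% of the spots lie, and a difference of 1 is a 2-fold change.

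Long noncoding RNAs are transcripts that carry no long reading frame and act as RNA, and many, though not all, are spliced and processed much like mRNA. MALAT1 and NEAT1 stay in the nucleus, in speckles and paraspeckles. H19 and MEG3 are imprinted, HOTAIR lies in the HOXC cluster and binds Polycomb proteins, and PVT1 lies beside MYC. GAS5 hosts small nucleolar RNAs (snoRNAs) in its introns, UCA1 was first described in bladder carcinoma, and HULC, named for its high level in liver cancer, is largely restricted to liver among normal tissues.

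The promoters shown are those of the 4 members whose sequence was held by the promoter table used here and could be printed, namely H19 (higher in PLC5), GAS5 (lower in PLC5), and MEG3 and MALAT1, which had no called difference. Promoters of the other members were not used here. Each sequence holds 250 bases before and 50 bases after an annotated start (RefSeq, GRCh38.p14), 5′ to 3′ on the strand of the gene. Capitals mark 4 textbook promoter motifs, searched on both strands: the TATA box TATAAA, the CCAAT box CCAAT, the cAMP response element TGACGTCA and the GC box GGGCGG.
H19 chr11:2001217-2001516, minus strand: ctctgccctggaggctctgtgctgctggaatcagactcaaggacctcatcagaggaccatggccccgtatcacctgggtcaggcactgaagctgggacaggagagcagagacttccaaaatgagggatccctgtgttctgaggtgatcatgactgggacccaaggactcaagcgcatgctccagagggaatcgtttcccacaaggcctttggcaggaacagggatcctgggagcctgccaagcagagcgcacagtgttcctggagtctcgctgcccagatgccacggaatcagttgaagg
GAS5 chr1:173868996-173869295, minus strand: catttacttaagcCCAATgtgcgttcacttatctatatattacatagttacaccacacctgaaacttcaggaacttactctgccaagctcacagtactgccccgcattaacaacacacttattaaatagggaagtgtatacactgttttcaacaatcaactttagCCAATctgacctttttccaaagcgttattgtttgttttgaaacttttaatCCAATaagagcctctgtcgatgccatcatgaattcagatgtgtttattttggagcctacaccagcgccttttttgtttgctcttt
MEG3, first of 3 overlapping starts chr14:100825858-100826157, plus strand: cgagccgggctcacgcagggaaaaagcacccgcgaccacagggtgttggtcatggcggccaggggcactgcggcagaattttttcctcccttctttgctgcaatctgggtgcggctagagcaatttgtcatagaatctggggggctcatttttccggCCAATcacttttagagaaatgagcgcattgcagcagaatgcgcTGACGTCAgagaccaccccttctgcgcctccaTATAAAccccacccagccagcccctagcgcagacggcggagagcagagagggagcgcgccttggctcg
MALAT1, second of 2 starts chr11:65498795-65499094, plus strand: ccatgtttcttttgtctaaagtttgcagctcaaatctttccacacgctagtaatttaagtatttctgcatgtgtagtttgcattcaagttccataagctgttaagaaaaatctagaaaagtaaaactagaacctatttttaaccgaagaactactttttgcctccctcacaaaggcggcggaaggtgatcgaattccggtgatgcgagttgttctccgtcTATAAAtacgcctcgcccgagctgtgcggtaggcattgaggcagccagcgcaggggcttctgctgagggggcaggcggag
The TATA box occurs in 11.5% of all 35116 promoters of this length, the CCAAT box in 34.6%, the cAMP response element in 1.85% and the GC box in 45.0%. The MEG3 window holds 1 TATA box, 1 CCAAT box and 1 cAMP response element, the GAS5 window holds 3 CCAAT boxes, and the H19 window holds none of the 4 motifs. In MALAT1 the second start has 1 TATA box, while the window of the first start, not shown, has 5 GC boxes and none of the others. The GC content is 57.7% for H19, 37.7% for GAS5, 59.0% for MEG3 and 46.0% for this MALAT1 window, against a median of 58.7% over all promoters. These matches are a description of the letters.

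H19 is also the primary transcript of miR-675, whose mature forms are given with the seed, bases 2 to 8, in capitals (RefSeq, GRCh38.p14). The mature forms were not measured here.
hsa-miR-675-5p chr11:1996800-1996822, minus strand: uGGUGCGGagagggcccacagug
hsa-miR-675-3p chr11:1996768-1996787, minus strand: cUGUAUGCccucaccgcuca

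Between 62.5% and 83.2% of the 58717 spots that are not controls were well above background on each array, and no spot was saturated. Arrays of one group correlated at 0.968 to 0.988. GALNT1 was read first. On its probe A_23_P306105 the HA22T siControl arrays lay at 1.09, 0.63 and 0.39 and the siGALNT1 arrays at -2.84, -4.29 and -5.02, the last 2 not well above background, a log2 difference of -4.75 ± 0.49 (SE, n = 3 and 3, adjusted p = 0.030, limma). In PLC5 the same probe went from -0.02, -0.41 and -0.10 to -2.69, -3.18 and -3.76, a difference of -3.03 ± 0.49 with an adjusted p of 1.0 (limma), lower on 3 of 3 arrays. The brighter GALNT1 probe, A_33_P3210218, went in HA22T from 1.32, 0.75 and 0.85 to -3.15, -3.68 and -5.55, the last not well above background, a difference of -5.10 ± 0.61 that missed the threshold (adjusted p = 0.071, limma). In PLC5 it went from 0.87, 0.37 and 0.61 to -1.93, -3.47 and -3.92, a difference of -3.72 ± 0.61 (adjusted p = 1.0, limma). Both probes were lower on all siGALNT1 arrays of both lines, and A_23_P306105 in HA22T was the single call. Slide 1 carried every HA22T array together with both PLC5 arrays of replicate 1, and slide 2 carried the remaining 4 arrays of PLC5, so line and slide overlap only in part.

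The main contrast among the noncoding RNAs was between the 2 lines. With siControl, 14 of the 36 member probes that could be counted differed between PLC5 and HA22T at an adjusted p below 0.05 (limma), against 22% of all counted probes. Of these, 4 were higher in PLC5 (11% of all counted probes were) and 10 were lower (11%). With siGALNT1 the count was 15 of 36 (22.9% of all), 3 higher (13.1%) and 12 lower (9.79%). PVT1 alone gave 7 of the lower calls with either siRNA, and HOTAIR gave 2 with siControl and 4 with siGALNT1. Probes of the same gene are not independent, so these shares are of probes and not of genes. Of all probes called with siGALNT1, 57.2% were higher in PLC5, against 45.2% with quantile scaling and 40.8% with the percentile taken over unflagged spots. Counted means that 3 or more of the 6 arrays compared gave a signal well above background. HULC was counted through the PLC5 arrays alone, where it is high, so its call adds no support, and without it 13 of 35 and 14 of 35 member probes were called. For HOTAIR probes A_21_P0010502 and A_19_P00330814 the 3 HA22T arrays, where they are higher, were enough to be counted. The calls of these HOTAIR probes add no support either. With both siRNAs 13 probes of 6 genes were called in the same direction (17.4% of all probes counted in both). The genes were UCA1, HULC and H19, which were higher in PLC5, and GAS5, PVT1 and HOTAIR, which were lower. MALAT1, NEAT1 and MEG3 had no called probe. At an unadjusted p below 0.05, 16 of 36 member probes differed with siControl (33% of all). The 3 PLC5 arrays and the 3 HA22T arrays did not overlap on 19 of 36 with siControl (42.3% of all) and on 21 of 36 with siGALNT1 (40.4% of all). Over all 12 arrays the lines did not overlap on 16 of the 36 counted member probes, as was so for 25.1% of all probes.

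**Figure D1:**
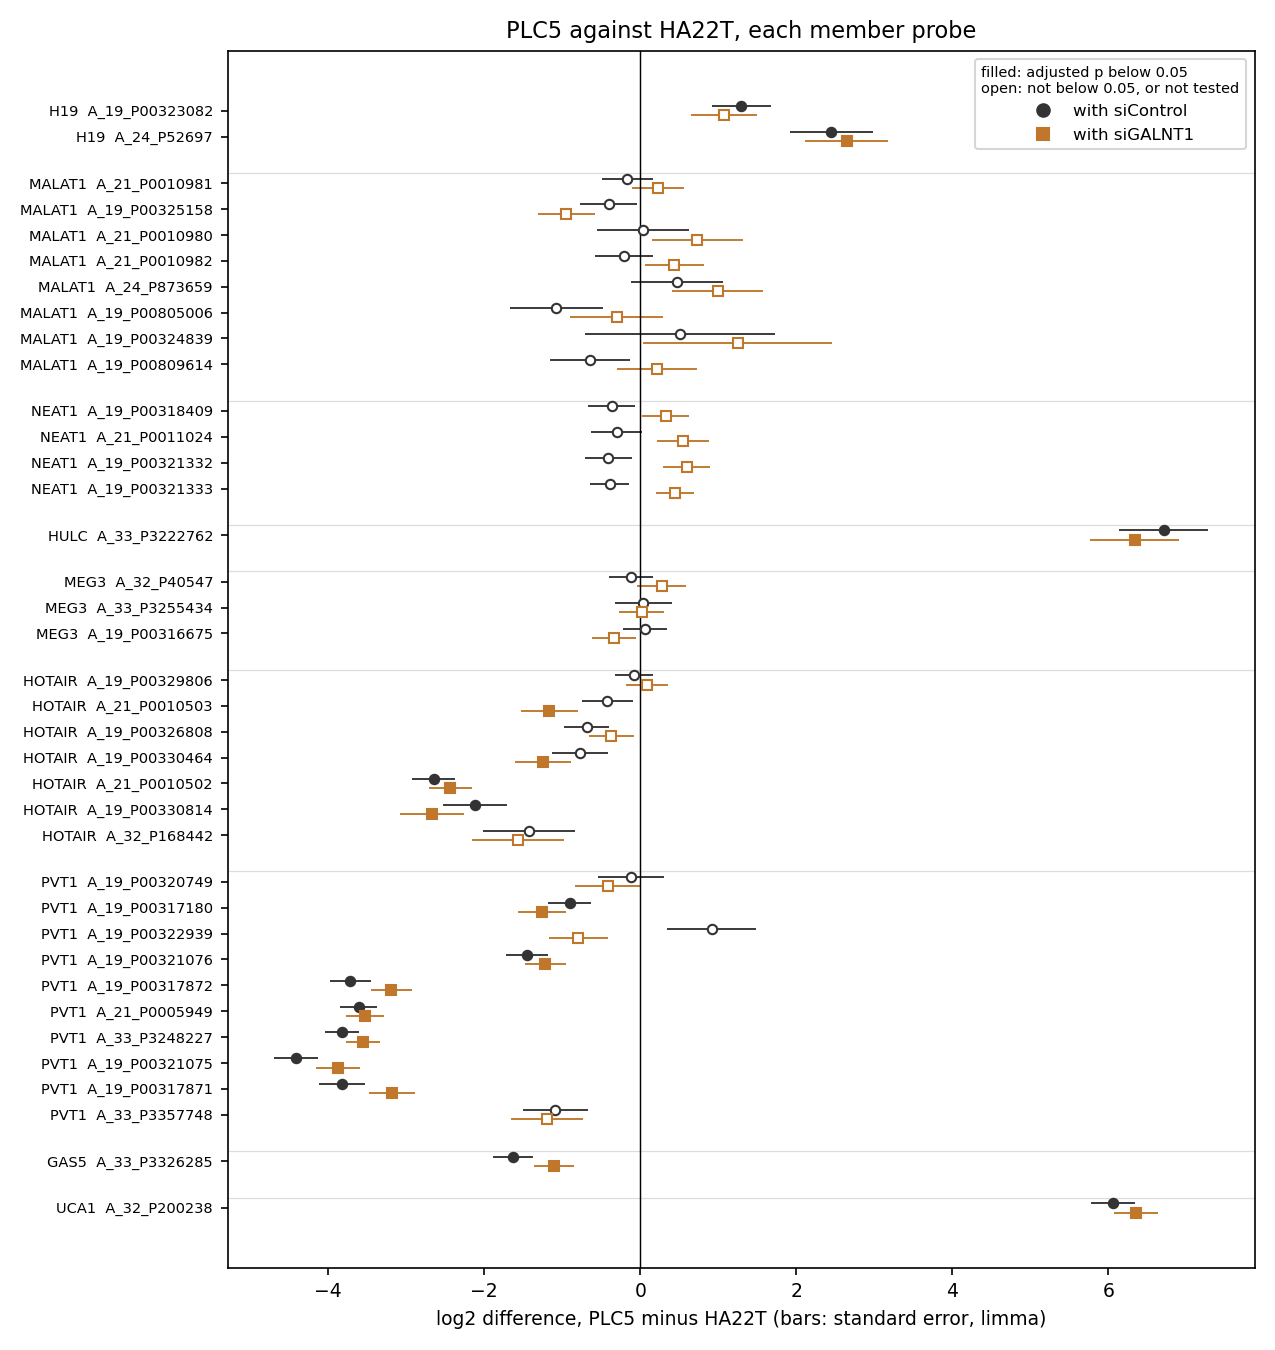
The log2 difference of PLC5 minus HA22T for each of the 37 member probes, with siControl (circles) and siGALNT1 (squares); bars are standard errors from limma and filled symbols have an adjusted p below 0.05. UCA1 and HULC lie above 6, 5 of the 10 PVT1 probes lie below -3, and the MALAT1, NEAT1 and MEG3 probes are all open.

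UCA1 showed the clearest separation. With siControl its level was -0.96, -0.48 and -1.16 in HA22T and 5.02, 5.15 and 5.39 in PLC5. With siGALNT1 it was -0.51, -0.90 and -1.33 in HA22T and 5.28, 5.62 and 5.42 in PLC5. All 6 PLC5 arrays were above all 6 HA22T arrays, with a gap of 5.50, and the probe was well above background on all 12. The difference was 6.06 ± 0.28 (SE, n = 3 and 3) with siControl, or 66.6-fold, and 6.35 ± 0.28 with siGALNT1, or 81.8-fold, with adjusted p of 1.46e-07 and 1.13e-07 (limma). In an exact permutation test of the lines within each siRNA (two-sided), p was 0.005, the smallest that its 400 arrangements allow. The 2 siRNA groups overlapped within HA22T and within PLC5.

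HULC was measured in PLC5 and was not well above background on any of the 6 HA22T arrays. In PLC5 its level was -0.47, -1.11 and -0.33 with siControl and -1.08, -0.48 and -0.96 with siGALNT1, well above background on all 6. The HA22T spots read between -8.49 and -6.39, which gives only a bound. HULC was at least 30.2-fold higher in PLC5 with siControl (mean -0.64, against -5.55 at the lowest signals that counted as above background and -7.34 as measured; adjusted p = 8.21e-06, limma). With siGALNT1 it was at least 17.6-fold higher (adjusted p = 1.37e-05, limma). A probe that is counted only through the line where it is high had to differ, so these p-values are given as a description. Without any 1 of the PLC5 arrays of a comparison the probe had too few measured arrays to be counted, so that it was then not tested.

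H19, the maternally expressed RNA of the IGF2 locus, was higher in PLC5 on both of its probes. Probe A_24_P52697 lay at -1.89, -0.63 and -0.67 in HA22T siControl and at 1.69, 1.40 and 1.06 in PLC5 siControl. With siGALNT1 the HA22T arrays lay at -2.64, -1.13 and -1.21 and the PLC5 arrays at 1.07, 1.79 and 0.10. The lines did not overlap, and the lowest PLC5 array was 0.73 above the highest HA22T array. The difference was 2.45 ± 0.53 (5.46-fold, adjusted p = 0.0062, limma) with siControl and 2.65 ± 0.53 (6.25-fold, adjusted p = 0.0040, limma) with siGALNT1.

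The other H19 probe, A_19_P00323082, gave a smaller difference. It lay at 2.48, 3.39 and 3.46 in HA22T siControl and at 4.87, 4.25 and 4.10 in PLC5 siControl. With siGALNT1 it lay at 3.16 and 3.06 in HA22T, where the spot of replicate 1 was flagged as non-uniform and dropped, and at 4.55, 4.44 and 3.53 in PLC5. The groups did not overlap with either siRNA. Its difference was 1.29 ± 0.38 (adjusted p = 0.033, limma) with siControl and 1.07 ± 0.42 (adjusted p = 0.098, limma) with siGALNT1. The first call was lost without HA22T siControl replicate 1 (adjusted p = 0.119, limma) and without PLC5 siControl replicate 1, 2 or 3 (adjusted p = 0.110, 0.072 and 0.053). It was also lost with the replicate number as a block (adjusted p = 0.060), with median scaling (0.067) and with the percentile taken over unflagged spots (0.057). The second became a call without PLC5 siGALNT1 replicate 3 (adjusted p = 0.037, limma) and with slide as a block (1.49, adjusted p = 0.045).

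**Figure D2:**
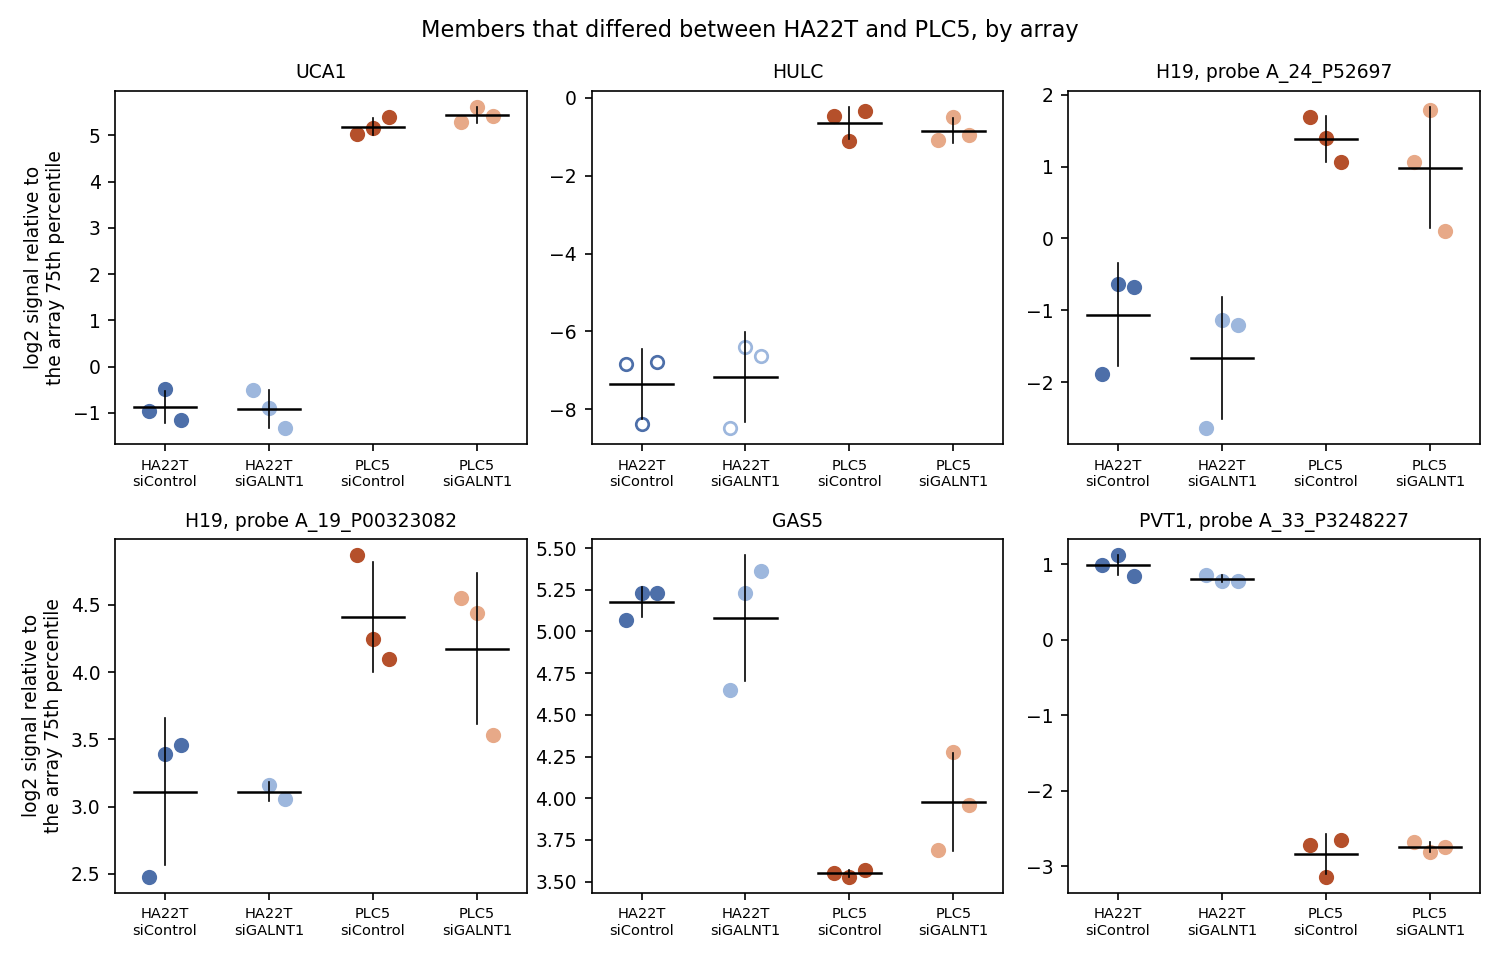
Levels by array for the members that differed between the lines, 3 arrays a group, each panel 1 probe with its own axis; bars are the mean and SD, and open symbols are not well above background. On the probes shown, the PLC5 arrays lie above the HA22T arrays for UCA1, HULC and H19 and below them for GAS5 and PVT1 (A_33_P3248227). The lines did not overlap on 8 of the 10 PVT1 probes, and H19 A_19_P00323082 has 5 HA22T arrays with a value.

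GAS5, which accumulates in growth-arrested cells and is degraded during active translation, was lower in PLC5. In HA22T it lay at 5.07, 5.23 and 5.23 with siControl and at 4.65, 5.23 and 5.36 with siGALNT1. In PLC5 it lay at 3.55, 3.53 and 3.57 with siControl and at 3.69, 4.28 and 3.96 with siGALNT1. All 6 PLC5 arrays were below all HA22T arrays, by 0.37 at the closest. The difference was -1.63 ± 0.26 (3.09-fold lower, adjusted p = 7.59e-04, limma) with siControl and -1.10 ± 0.26 (2.15-fold lower, adjusted p = 0.0093, limma) with siGALNT1.

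PVT1 depended on the probe. With both siRNAs, 5 of its 10 probes were lower in PLC5 by more than 3, between -4.41 and -3.61 with siControl and between -3.88 and -3.18 with siGALNT1. The probe with the smallest error, A_33_P3248227, lay at 0.99, 1.12 and 0.85 in HA22T siControl and at -2.72, -3.14 and -2.66 in PLC5 siControl, a difference of -3.83 ± 0.22 (14.2-fold lower, adjusted p = 5.61e-07, limma). With siGALNT1 it lay at 0.86, 0.78 and 0.78 and at -2.68, -2.81 and -2.75, a difference of -3.56 ± 0.22 (adjusted p = 9.52e-07, limma). On these 5 probes every PLC5 array was below every HA22T array by at least 2.69.

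Other PVT1 probes gave smaller differences or none. A_19_P00321076 differed by -1.45 ± 0.27 with siControl and -1.22 ± 0.27 with siGALNT1 (adjusted p = 0.0022 and 0.0066, limma), and A_19_P00317180 by -0.90 ± 0.27 and -1.26 ± 0.31 (adjusted p = 0.039 and 0.014). The call of A_19_P00317180 with siControl was lost when any of 7 arrays was left out: HA22T siControl 1, 2 or 3, HA22T siGALNT1 2 or 3, or PLC5 siControl 2 or 3, with adjusted p up to 0.150, and with slide as a block (adjusted p = 0.263). Its call with siGALNT1 was lost without PLC5 siGALNT1 replicate 2 (adjusted p = 0.127). A_33_P3357748 differed by -1.09 ± 0.41 and -1.19 ± 0.46, short of the threshold (adjusted p = 0.093 and 0.092), but with slide as a block it was called with both siRNAs (-1.83 and -1.75, adjusted p = 0.0062 and 0.0079, limma).

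The brightest PVT1 probe, A_19_P00320749, did not separate the lines. Its siControl arrays lay at 3.62, 4.82 and 4.73 in HA22T and at 4.37, 4.35 and 4.11 in PLC5. With siGALNT1 they lay at 5.26, 4.43 and 4.30 and at 4.15, 3.63 and 4.97. The difference was -0.12 ± 0.42 with siControl (95% interval -1.05 to 0.81), an interval that excludes the falls of the 5 probes above. The spots of A_19_P00322939 were flagged on 3 of the 12 arrays, and its difference was 0.92 ± 0.57 with siControl and -0.79 ± 0.38 with siGALNT1. All 10 probes are assigned to the same RefSeq transcript, and their sequences were not used here. When all probes of PVT1 were averaged the difference was -2.38 ± 0.19 and -2.25 ± 0.19 (adjusted p = 2.33e-06 and 4.01e-06, limma).

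HOTAIR, a scaffold for Polycomb repressive complex 2, split in the same manner. Probe A_21_P0010502 lay at -2.23, -2.47 and -2.41 in HA22T siControl and at -4.78, -5.16 and -5.11 in PLC5 siControl, where it was well above background on 1 of 3 arrays. With siGALNT1 it lay at -2.75, -2.87 and -2.30 and at -5.58, -4.82 and -4.82, where 2 of 3 PLC5 arrays measured it. The difference was -2.65 ± 0.28 and -2.43 ± 0.28 (adjusted p = 4.16e-05 and 8.24e-05, limma). A_19_P00330814 fell by 2.12 ± 0.41 and 2.67 ± 0.41 (adjusted p = 0.0030 and 6.61e-04, limma), and 3 of the 6 PLC5 arrays measured it. On both probes the lines did not overlap. The HA22T arrays, where both probes are higher, were enough for them to be counted, so these p-values are given as a description.

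The other HOTAIR probes were less clear. A_19_P00330464 (-0.77 ± 0.36 and -1.24 ± 0.36) and A_21_P0010503 (-0.42 ± 0.33 and -1.16 ± 0.36) were called with siGALNT1 only (adjusted p = 0.027 and 0.043, limma), and for neither did the change with siGALNT1 differ between the lines at the threshold (adjusted p = 0.989, limma). The call of A_21_P0010503 was lost without any of 8 arrays (HA22T siGALNT1 1 or 2, HA22T siControl 3, any PLC5 siControl, or PLC5 siGALNT1 1 or 2), with adjusted p up to 0.302, with the replicate block (adjusted p = 0.093), with slide as a block (0.156) and with quantile scaling (0.064). That of A_19_P00330464 was lost without HA22T siGALNT1 2 or 3 or PLC5 siGALNT1 1 or 2 (adjusted p up to 0.104) and with slide as a block (adjusted p = 0.051), and without PLC5 siControl replicate 2 it was also called with siControl (adjusted p = 0.040). A_19_P00326808 differed by -0.69 ± 0.29 and -0.37 ± 0.29 and was not called. The brightest probe, A_19_P00329806, lay between 6.00 and 6.38 on the HA22T arrays and between 6.00 and 6.44 on the PLC5 arrays, a difference of -0.08 ± 0.25 with siControl (95% interval -0.62 to 0.47). A_32_P168442 was well above background on 2 of the 12 arrays and was not counted. Averaged over its probes, HOTAIR differed by -1.16 ± 0.22 and -1.37 ± 0.22 (adjusted p = 0.0017 and 5.71e-04, limma). That mean includes A_32_P168442 and the PLC5 values of A_21_P0010502 and A_19_P00330814 that were not well above background. The brightest probe was not called.

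MALAT1, which retains splicing factors in nuclear speckles, was not called on any of its 8 probes. Its brightest probe, A_21_P0010981, lay at 5.66, 6.55 and 5.98 in HA22T siControl and at 6.09, 5.58 and 6.02 in PLC5 siControl. The difference was -0.16 ± 0.33 with siControl (95% interval -0.89 to 0.56) and 0.23 ± 0.33 with siGALNT1 (-0.50 to 0.95). On A_19_P00325158, with 2 spots dropped, the lines did not overlap but lay 0.0026 apart at the closest. Over all 8 probes the differences ran from -1.07 to 0.51 with siControl and from -0.95 to 1.25 with siGALNT1.

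In HA22T the MALAT1 levels followed the replicate number. On A_21_P0010980 the 2 arrays of replicate 1 read 1.71 and 1.33, and the other 4 HA22T arrays read from 2.82 to 3.79. On 6 of the 7 MALAT1 probes with a value on every HA22T array, both replicate 1 arrays were below the other 4. This was so for 9.53% of all 32440 such probes, and also for GAS5 and for H19 probe A_24_P52697. On 24.2% of the 32440 probes both replicate 1 arrays were above the other 4, so replicate 1 stood apart well beyond MALAT1. The same-numbered arrays of HA22T deviated together over all probes (correlations 0.513, 0.266 and 0.325), and those of PLC5 did so unevenly (0.570, 0.012 and 0.179).

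NEAT1, the backbone of paraspeckles, did not differ between the lines on any of its 4 probes at the threshold. The line differences were -0.41 to -0.30 with siControl and 0.33 to 0.60 with siGALNT1, so the 2 siRNAs gave opposite signs. MEG3 had no called probe either. Its brightest probe, A_32_P40547, lay at 1.29, 1.08 and 0.51 in HA22T siControl and at 1.08, 0.89 and 0.56 in PLC5 siControl, a difference of -0.12 ± 0.29 (95% interval -0.75 to 0.52). Its other probes differed by 0.04 ± 0.36 (A_33_P3255434) and 0.06 ± 0.28 with siControl. With siGALNT1 the 3 probes differed by -0.33 to 0.27. Dropped spots left A_33_P3255434 with 1 PLC5 siControl array and 2 PLC5 siGALNT1 arrays.

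The line differences of the called members kept their sign on the slide that both lines shared, where each PLC5 group has a single array, replicate 1. There UCA1 differed by 5.89 with siControl and 6.19 with siGALNT1, and HULC by 6.87 and 6.09. H19 (A_24_P52697) differed by 2.75 and 2.73, GAS5 by -1.63 and -1.39, PVT1 (A_33_P3248227) by -3.71 and -3.49, and HOTAIR (A_21_P0010502) by -2.41 and -2.94. With slide as a block, 14 and 15 of the 36 member probes were called with siControl and siGALNT1. Over all counted probes 6620 of 38011 and 7294 of 36741 were.

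Genes of the hepatocyte also differed between the lines. Of 16 hepatocyte markers, 13 were higher in PLC5 with either siRNA, with a median difference of 5.36 with siControl against -0.10 over all named genes. The largest differences with siControl were those of the apolipoproteins APOA2 (10.01) and APOB (9.55), of transferrin (TF, 9.62) and of the fibrinogen chains FGG (9.22) and FGA (8.69). Albumin (ALB) was higher by 3.96 and the liver transcription factor HNF4A by 3.24. The mean level over the 16 markers was -3.01 to -2.56 on the HA22T arrays and 2.10 to 2.83 on the PLC5 arrays. In HA22T 6 of the 16 were well above background on all 6 arrays, against 15 in PLC5, and APOC3 was so on none of its siControl arrays. Alpha-fetoprotein (AFP) did not differ at the threshold (0.30, adjusted p = 0.659, limma). Whether the state of hepatocyte genes has a part in the levels of UCA1, HULC or H19 was not tested, and in these bulk samples fewer cells with an RNA and less of it per cell cannot be told apart.

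No member probe was called between siGALNT1 and siControl. A missing call does not show that a level stayed the same, since in PLC5 GALNT1 itself, at -3.03 and -3.72, was not called. In HA22T none of 35 counted member probes was called (0.00275% of all 36327 counted probes were, and that 1 was GALNT1), and 1 had an unadjusted p below 0.05 (2.99% of all). In PLC5 none of 36 was called (0% of all), and none had an unadjusted p below 0.05 (1.33% of all). In the test of whether the change differed between the lines none of 36 was called (0% of all), and 3 had an unadjusted p below 0.05 (2.43% of all). The methods' t-test, run on the same values with Benjamini-Hochberg adjustment, also called none in either line.

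The intervals show what size of change the arrays leave room for. For UCA1 the siGALNT1 difference was -0.05 ± 0.28 in HA22T (95% interval -0.67 to 0.57) and 0.25 ± 0.28 in PLC5 (-0.37 to 0.87). For GAS5 it was -0.10 ± 0.26 in HA22T (-0.66 to 0.47) and 0.43 ± 0.26 in PLC5 (-0.13 to 0.99), where the 3 siGALNT1 arrays were all above the 3 siControl arrays, an arrangement seen in 5.94% of all counted probes of PLC5 in 1 direction or the other. HULC differed by -0.20 ± 0.57 in PLC5 (-1.45 to 1.05). H19 (A_24_P52697) differed by -0.60 ± 0.53 in HA22T and -0.40 ± 0.53 in PLC5. The single member probe with an unadjusted p below 0.05 was PVT1 A_19_P00322939 in HA22T (1.49 ± 0.54, adjusted p = 1.0, limma), where the siControl group kept only replicate 1 after 2 spots were dropped.

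**Figure D3:**
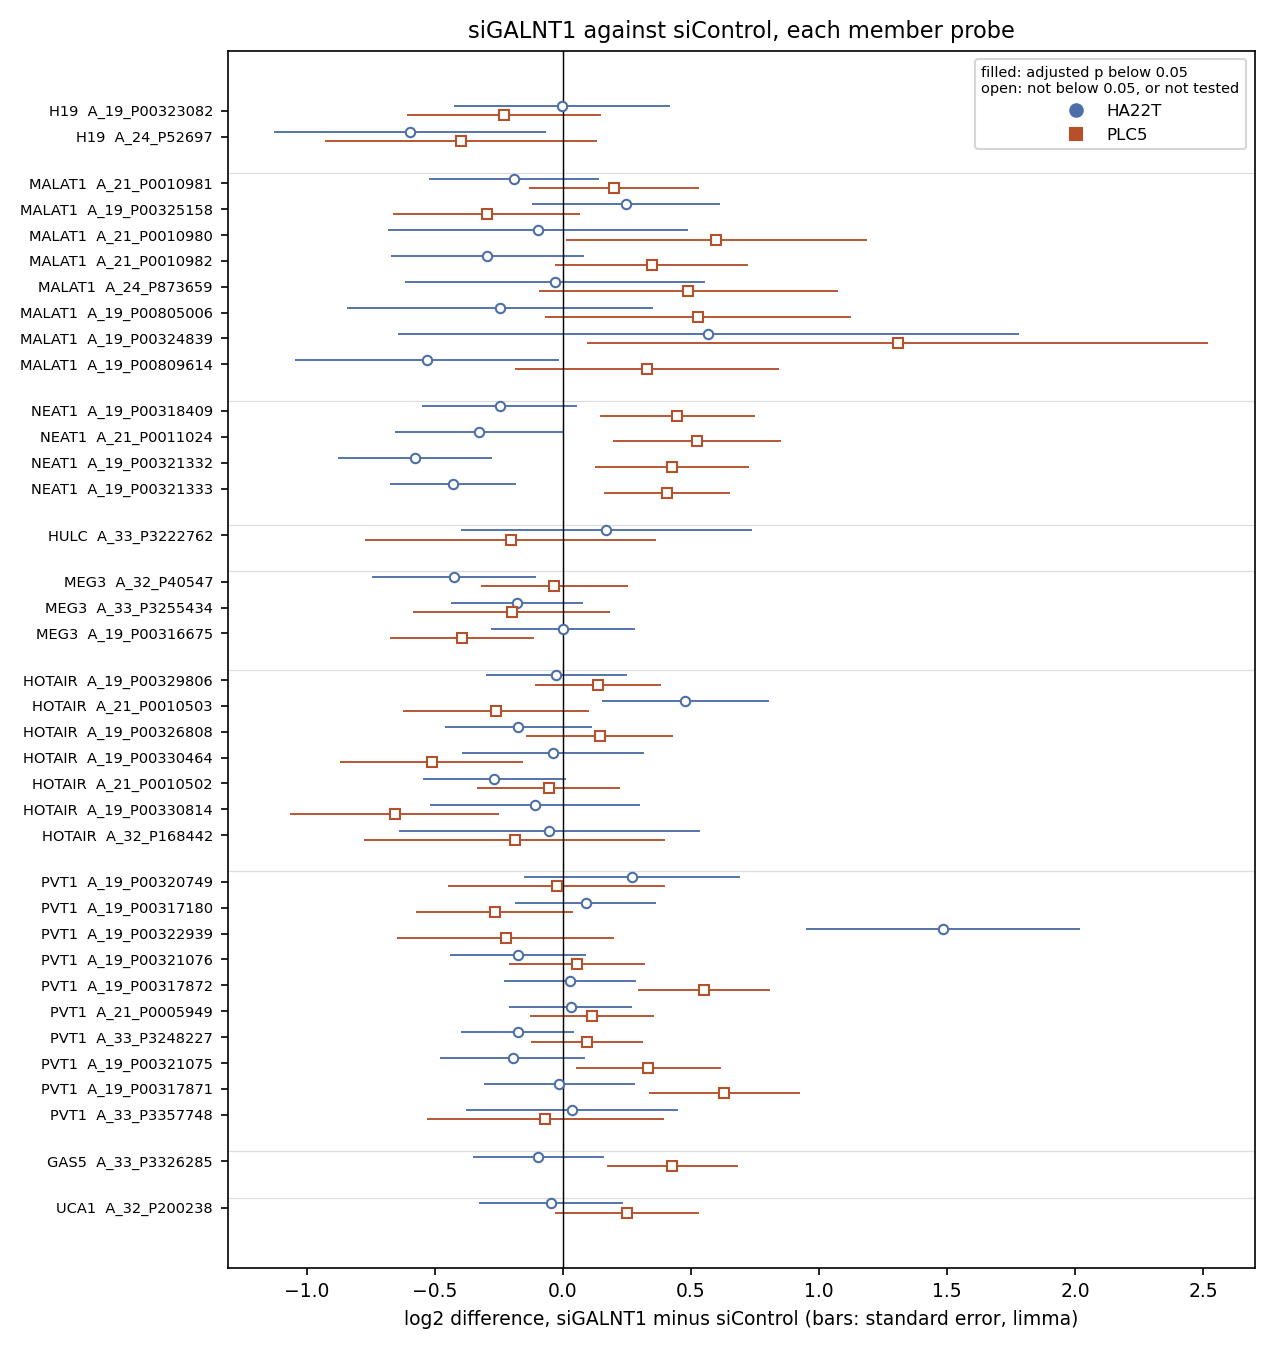
The log2 difference of siGALNT1 minus siControl for each of the 37 member probes in HA22T (circles) and PLC5 (squares); bars are standard errors from limma. Every symbol is open, since no member probe reached an adjusted p below 0.05.

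NEAT1 read lower with siGALNT1 in HA22T and higher in PLC5 on each of its 4 probes, without reaching the threshold. On A_19_P00321333 the HA22T arrays lay at -0.32, -0.39 and -0.78 with siControl and at -0.73, -1.06 and -0.98 with siGALNT1. The PLC5 arrays lay at -1.03, -1.06 and -0.58 with siControl and at -0.61, -0.28 and -0.56 with siGALNT1. The groups overlapped in both lines. The differences were -0.43 ± 0.25 in HA22T and 0.41 ± 0.25 in PLC5. Over the 4 probes they were -0.58 to -0.25 in HA22T and 0.41 to 0.52 in PLC5. The change in PLC5 minus that in HA22T was 0.84 ± 0.35 on A_19_P00321333 (unadjusted p = 0.034, adjusted p = 0.989, limma) and 0.69 to 1.00 over the 4 probes. The probes read the same RNA on the same arrays and are not independent.

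**Figure D4:**
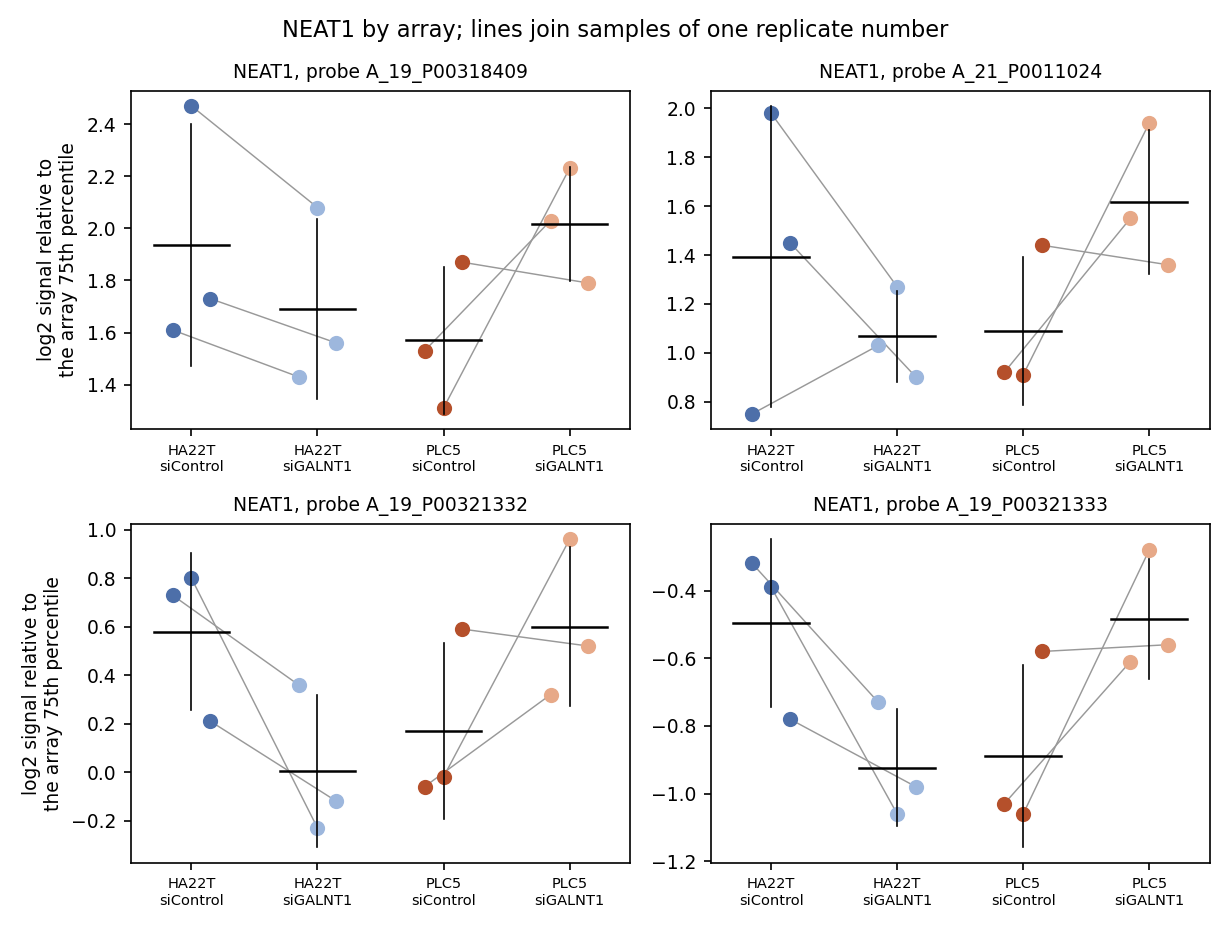
NEAT1 levels by array on each of its 4 probes, 3 arrays a group, with the mean and SD; thin lines join samples of the same replicate number. The siGALNT1 mean lies below the siControl mean in HA22T and above it in PLC5 on every probe, and the groups of each line overlap.

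Genes tied to the members by function showed a mixed picture between the lines. GAS5 belongs to the snoRNA host genes, of which 15 others could be counted. With siControl, 5 were lower in PLC5 and 2 were higher, 46.7% against 26.6% of all named genes, with a median of -0.29. SNHG29 differed by -2.81 (adjusted p = 8.78e-06, limma), SNHG5 by -1.64, SNHG6 by -1.33, SNHG12 by -1.29 and EPB41L4A-AS1 by -1.02, while SNHG7 and SNHG9 were higher by 1.18 and 1.17. With siGALNT1, 5 were lower and none was higher, 33.3% against 26.6% of all named genes. These were SNHG29, SNHG5, SNHG12 and EPB41L4A-AS1 again, and SNHG15.

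None of the 15 paraspeckle and speckle proteins, which work with NEAT1 and MALAT1, was called with either siRNA, against 26.6% of all named genes. Their medians were -0.41 with siControl and -0.15 with siGALNT1, against -0.10 and -0.067 over all named genes. Missing calls do not show equal levels in the lines. Among them, SFPQ and NONO, which are needed for paraspeckles, differed by -0.29 and -0.60, and the speckle protein SRRM2 differed by -0.62. Of Polycomb repressive complex 2, the partner of HOTAIR, SUZ12 was lower in PLC5 with siControl (-0.97, adjusted p = 0.016, limma), and the catalytic subunit EZH2 was not called (-0.64, adjusted p = 0.347). With siGALNT1 none of its 6 counted genes was called. Of the 3 IGF2 mRNA binding proteins, which bind H19 among other RNAs, IGF2BP1 was higher in PLC5 with both siRNAs (1.94 and 2.26), IGF2BP3 was lower with siControl (-1.07, adjusted p = 0.0088) and IGF2BP2 was not called.

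The nearest protein-coding neighbours on either side of the members, 28 measured genes, gave 5 higher and 5 lower calls among 23 counted with siControl (43.5%, against 26.6% of named genes). Beside PVT1, the growth regulator MYC was lower in PLC5 (log2 differences of -1.84 with siControl and -1.82 with siGALNT1, adjusted p = 0.0020 and 0.0023, limma), and CYRIB by -1.19 and -1.13. In the HOXC cluster with HOTAIR, HOXC10 was higher in PLC5 by 3.97 and 3.61, opposite in sign to HOTAIR, and HOXC13 and HOXC9 were not called. Beside MALAT1 and NEAT1, which share their neighbours, the mitochondrial carrier SLC25A45 was higher in PLC5 by 3.51 and 3.33 and FRMD8 by 1.60 and 1.28, while LTBP3 was not called.

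Beside UCA1, the fatty acid hydroxylase CYP4F2 was higher in PLC5 by 3.38 and 3.20, and CYP4F11 was not called (0.21 and 0.37). The imprinted partner of H19, IGF2, did not differ at the threshold (-0.27 with siControl, adjusted p = 0.552, limma), nor did the partner of MEG3, DLK1 (-0.27, adjusted p = 0.484). TNNT3, beyond H19, was lower in PLC5 by -0.92 and -0.80. SLC35B3, a sulfate donor (PAPS) transporter beside HULC, was lower by -1.61 and -1.11, and CENPL, beside GAS5, differed by -2.04 with siControl. No gene of these lists was called between siGALNT1 and siControl in either line.

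**Figure D5:**
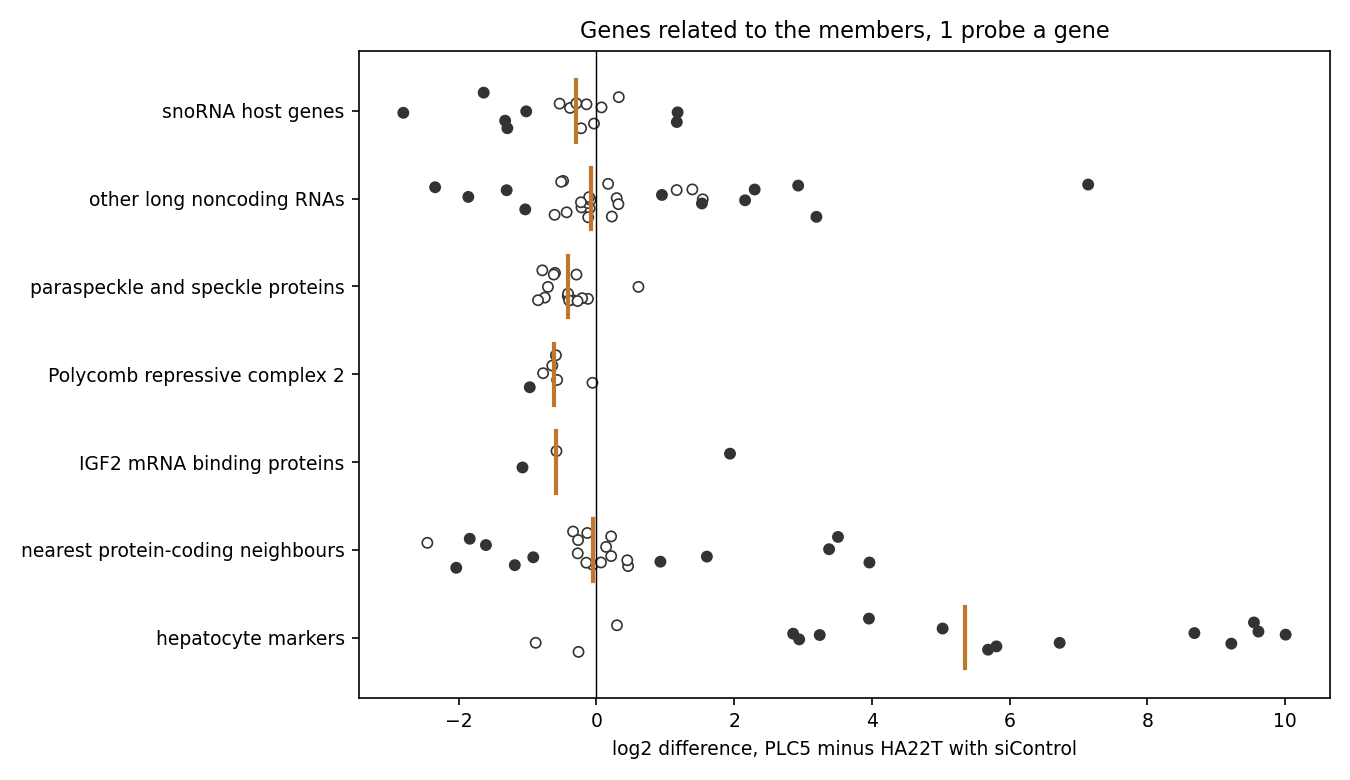
The log2 difference of PLC5 minus HA22T with siControl for each counted gene of 7 lists related to the members, 1 probe a gene; filled symbols have an adjusted p below 0.05 (limma) and the bar is the median of the list. Hepatocyte markers have a median of 5.36, while the medians of the other 6 lists lie between -0.62 and -0.056.

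The 5 members whose brightest probe was well above background on all 12 arrays were set against 11849 named genes by the root mean square distance of their centred levels over the 12 arrays. The closest to UCA1 were BASP1 (0.34), APOM (0.41) and SELENOP (0.42). PALS1 (0.10), CDYL (0.15) and TBC1D10A (0.16) were closest to GAS5. For NEAT1 they were HACE1 (0.17), CBL (0.19) and USP14 (0.20), and for MALAT1 they included TOM1L1 (0.16) and OAZ2 (0.16). The brightest PVT1 probe, which did not separate the lines, was closest to BCRP2 (0.16), KCNH3 (0.17) and the snoRNA host SNHG17 (0.18). These distances describe likeness of level only.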

How the data were processed

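Total RNA from 12 samples was labeled as cDNA and hybridized to one-color Agilent arrays (8x60K), which the authors analyzed with Feature Extraction 10.5.1.1, as the submitters' processing notes name it. Among the files the authors deposited, those of single arrays hold the intensity of each spot (the processed signal, from which the software has subtracted background, and the median brightness) with its flags. A further deposited table holds log2 values by probe, and its scaling step is not given in the sources used here. Spots that were controls or carried the non-uniform flag were dropped, the spots of a probe were averaged, and the log2 of the 75th percentile over an array's non-control spots was subtracted. Probes were named through RefSeq accessions (28174 of 50599 matched, GRCh38.p14). The array was annotated on an older build, so no coordinates of probes were used. The order of genes, for neighbours, and the positions and sequences of promoters and miRNAs are those of RefSeq on GRCh38.p14.

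One limma model (version 3.58.1, R 4.3.3, lmFit then eBayes) held the 4 groups and no covariate, and p-values were adjusted by Benjamini-Hochberg over all counted probes of a comparison, with 0.05 as the threshold. The filter required 3 or more of the 6 arrays compared to be well above background. For genes of the lists and for neighbours the brightest probe with a value in every group was read, and all probes were given for members. The rule for named genes took GALNT1, GAPDH, all member probes, the called genes with the largest change of each list (at most 5), the neighbours, and the 3 genes most like a member. Other list genes in the text (among them ALB, AFP, HNF4A, SFPQ, NONO, SRRM2, EZH2, IGF2BP2 and the smaller calls) were chosen after their values were seen. A few genes that the rule names are not reported here. Where no array of a group measured a probe, a bound was given against the lowest signals called above background. Exact permutation tests were two-sided, and with 3 against 3 arrays cannot go below 0.1. The members and lists were chosen with earlier results of these data known.

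The replicate numbers pair the samples in HA22T by the correlations given, not by a statement in the labels, and not in PLC5. In data simulated from 32409 probes for PLC5 against HA22T with siControl, 200 probes were given a change. The fit recovered 12% of log2 changes of 1, 66% of 2, 92% of 3 and 98% of 5, with 7 false calls in 141. In the measured comparison 22% of counted probes were called. The adjusted cutoff depends on the share of changed probes, so these rates do not carry over to it. The number of arrays limits the precision. Alternatives were normexp correction (on the median brightness, offset 50), quantile and median scaling, the deposited table, other filters, slide and replicate as blocks, the 2 groups alone, a trended prior, the methods' t-test, the mean over probes and leaving out each array. Percentiles over unflagged spots and each slide alone were added after the data were seen.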

Additional observations from a re-analysis of the deposited data

Results flagged for a closer look

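On 2 member probes every same-numbered pair of HA22T arrays read lower with siGALNT1 and every such pair of PLC5 arrays read higher. The share of all probes with this ordering is not given here, so the count of 2 is not read as a result about the members. For NEAT1 (A_19_P00321333) the change in PLC5 minus that in HA22T was 0.84 ± 0.35 (adjusted p = 0.989, limma). For MALAT1 (A_21_P0010982) it was 0.64 ± 0.53 (adjusted p = 0.989, limma), from -0.30 in HA22T and 0.35 in PLC5. The test of the difference did not pass for either, and the replicate numbers did not pair the PLC5 samples in their values. Groups of 3 arrays were too small to look for single outlying arrays.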

How the results depend on the processing

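Among the counts of called member probes, the 0 calls for siGALNT1 in either line and for the difference between lines held under every alternative run, and the counts between lines stayed within 1.5 times the reported ones except with siGALNT1 under the methods' t-test (8, against 15) and on slide 1 alone (9). Without 1 array at a time the counts ran from 11 to 14 with siControl and from 11 to 16 with siGALNT1. The replicate block gave 13 calls between the lines with siControl and 14 with siGALNT1, and ended the calls of H19 A_19_P00323082 and HOTAIR A_21_P0010503 and no other member call; it also ended that of GALNT1 in HA22T (adjusted p = 0.107, limma). UCA1 and the 5 strongly lower PVT1 probes kept their direction and, where counted, their calls in all settings run. HOTAIR A_21_P0010502 did so where counted, but the HA22T arrays alone were enough for it to be counted, so its call adds no support. HULC kept its direction too, but it was counted through the PLC5 arrays alone, so its call adds no support. The methods' t-test ended, with siGALNT1, the calls of HOTAIR A_19_P00330814 (adjusted p = 0.051), A_19_P00330464 and A_21_P0010503, PVT1 A_19_P00321076 and A_19_P00317180, GAS5 and H19 A_24_P52697, and with siControl that of H19 A_19_P00323082. With the 2 groups alone GAS5 with siGALNT1 missed the threshold (-1.10, adjusted p = 0.071, limma), as did HOTAIR A_19_P00330464 and A_21_P0010503 and PVT1 A_19_P00317180. On slide 1 alone, where each PLC5 group has a single array, GAS5 and H19 A_24_P52697 missed it with both siRNAs. There PVT1 A_19_P00321076 and A_19_P00317180 did so too. H19 A_19_P00323082 with siControl and HOTAIR A_19_P00330464 with siGALNT1 also missed it on that slide, and HOTAIR A_21_P0010503 with siGALNT1 was not counted.

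Over all probes, taking the 75th percentile from unflagged spots moved the median difference between lines with siGALNT1 from -0.10 to -0.32 and the share of calls that were higher in PLC5 from 57.2% to 40.8%, and quantile scaling moved that share to 45.2%. The member signs that turned belonged to differences that were not called as reported. Among dimmer probes, slide as a block turned MALAT1 A_19_P00324839 (to -0.13) and MEG3 A_19_P00316675 (to -0.19) between lines with siControl, and MEG3 A_33_P3255434 (0.062 and 0.24) and PVT1 A_33_P3357748 (0.12 and 0.081) for siGALNT1 in PLC5 and its change between lines. The rest are those of brightest probes or of the mean over probes. With the percentile from unflagged spots, siGALNT1 differences in HA22T became 0.11 (H19), 0.051 (HOTAIR), 0.028 (GAS5) and 0.078 (UCA1), and HOTAIR between lines with siGALNT1 -0.091. Quantile scaling gave 0.033 (H19), -0.51 (HULC) and 0.052 (UCA1) for siGALNT1 in HA22T, 0.13 (MALAT1), 0.31 (HOTAIR) and 0.084 (PVT1) between lines with siControl, and 0.33 for the HULC change between lines. Normexp gave 0.18 (HOTAIR) and 0.022 (PVT1) between lines with siControl. MEG3 between lines with siGALNT1 became -0.13 in the deposited table and -0.11 with non-uniform spots kept. Slide 1 alone gave 0.029 (MALAT1), 0.12 (MEG3) and 0.15 (HOTAIR) between lines with siControl and 0.043 for MEG3 with siGALNT1 in PLC5, slide 2 alone gave 6.0e-04 (HULC) and 0.073 (PVT1) for the latter, and slide as a block gave 0.16 (MEG3) and 0.12 (HOTAIR). The replicate block gave 0.090 for the H19 change between lines. The mean over all probes gave 0.31 (H19), -0.076 (MEG3), -0.21 (HOTAIR) and 0.13 (PVT1) for that change, 0.0044 and -0.071 for MEG3 between lines, -1.37 for HOTAIR between lines with siGALNT1, and 0.0031 (HOTAIR in HA22T), -0.20 (HOTAIR in PLC5) and 0.13 (PVT1 in PLC5) for siGALNT1.

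Without 1 array, siGALNT1 differences in HA22T ran from -0.24 to 0.12 (GAS5), -0.32 to 0.17 (H19), -0.13 to 0.083 (HOTAIR), -0.35 to 0.83 (HULC), -0.39 to 0.13 (MALAT1), -0.44 to 0.019 (NEAT1), -0.11 to 0.48 (PVT1) and -0.25 to 0.16 (UCA1), and in PLC5 from -0.42 to 0.093 (H19), -0.19 to 0.086 (MEG3) and -0.38 to 0.29 (PVT1). Between lines they ran with siControl from -0.19 to 0.0031 (HOTAIR), -0.37 to 0.077 (MALAT1), -0.34 to 0.045 (MEG3) and -0.50 to 0.10 (PVT1), and with siGALNT1 from -0.021 to 0.23 (HOTAIR) and -0.093 to 0.39 (MALAT1). The changes between lines ran from -0.41 to 0.10 (H19), -1.03 to 0.15 (HULC) and -0.65 to 0.091 (PVT1). The causes were not tested. Signal over background limits HULC in HA22T and HOTAIR in PLC5, and 3 arrays a group limit small changes.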

Other observations

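Other long noncoding RNAs were measured beside the members. Of 45 such genes, 33 had a probe and 29 could be counted, of which 7 were higher and 4 lower in PLC5 with siControl (37.9%, against 26.6% of all named genes). CDKN2B-AS1, the antisense RNA of the CDKN2A/B locus, differed by 7.14 as measured (adjusted p = 4.95e-06, limma), and it was well above background on 1 of 3 HA22T arrays. HOXA11-AS (3.19) and HOTTIP (2.93), both of the HOXA cluster, and DANCR (2.30) were higher in PLC5. CYTOR (-2.34), AFAP1-AS1 (-1.86), DLX6-AS1 (-1.30) and LINC00467 (-1.03) were lower. None was called with siGALNT1 against siControl in either line.

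Markers of other cell types gave a mixed reading. Of 5 counted mesenchymal and fibroblast markers, vimentin (VIM) and lumican (LUM) were lower in PLC5 with siControl (-5.54 and -6.12) and fibronectin (FN1) was higher (3.60). Of 3 counted endothelial markers 1 was called, with a median of 0.32, and the adhesion molecule PECAM1 was higher in PLC5 (5.41). Of 5 counted blood cell markers 1 was called higher and 1 lower, and the monocyte receptor CD14 was lower (-3.86). Over all named genes 26.6% were called with siControl.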
